A study of Mus musculus with 2 samples.

Results

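The nuclear-encoded subunits of the mitochondrial respiratory chain were followed through 4 sections of hairless mouse skin. A gene was counted as a member if its symbol started with Nduf, Uqcr, Cox4, Cox5, Cox6, Cox7, Cox8 or Atp5, or was Sdha, Sdhb, Sdhc, Sdhd, Cyc1 or Cycs, which gave 82 of the 19465 genes in the count tables. They comprised 35 genes counted by symbol as complex I subunits, Ndufa4l2 among them, and 6 assembly factors of complex I. The others were 4 subunits of complex II, 8 of complex III including cytochrome c1 (Cyc1), 15 of complex IV, 13 of complex V, and cytochrome c itself (Cycs). The samples were skin sections of female SKH-1 hairless mice, 10 to 12 weeks old, on 2 Visium capture areas. Visium prints barcoded spots on a slide, so that each spot, a small region that can hold several cells, yields its own counts of unique molecular identifiers (UMIs). The first area held ultraviolet-irradiated skin (UVR) above unirradiated normal skin (control). The second held irradiated skin treated with 0.1% retinol (retinol) above irradiated skin treated with 0.03% 9-cis HPR (HPR), so both treated groups had also been irradiated and their concentrations differed. "Above" was read as a smaller row of the tissue image, whereas the spot grid runs the other way, and a reading by the grid would give each section the other label of its area and so turn UVR over control and HPR over retinol around and set the treated sections against the section called control here. Each group was 1 section, so no test between groups could be made and no difference between animals was measured. The intervals given are 95% intervals for counting error only. UVR over control and HPR over retinol were compared within an area, whereas in retinol over UVR and HPR over UVR the capture area and the treatment cannot be told apart.

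The respiratory chain sits in the inner mitochondrial membrane. Complex I takes electrons from NADH and complex II, which is also the succinate dehydrogenase of the citric acid cycle, takes them from succinate. Electrons then pass through complex III and cytochrome c to complex IV, cytochrome c oxidase, which reduces oxygen, and complex V, the ATP synthase, uses the proton gradient to make ATP. Complex IV contains several small subunits with alternative isoforms: Cox6a2, Cox7a1 and Cox8b are the forms of heart and skeletal muscle, and Cox6a1, Cox7a2 and Cox8a are the forms of most other tissues. Skin holds both kinds of tissue in 1 section, since a sheet of striated muscle, the panniculus carnosus, runs beneath the dermis.

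The promoters of 3 complex IV isoforms are shown first because the results turn on their exchange between layers. Of the 82 members, 64 had a promoter entry in RefSeq (GRCm38.p6). The windows run 5′ to 3′ on the minus strand from 250 bases before the transcription start to 30 bases from it, at chr5:115348929-115349208 for Cox6a1, chr19:7217587-7217866 for Cox8a and chr7:140900417-140900696 for Cox8b, and capitals mark motif matches.
Cox6a1: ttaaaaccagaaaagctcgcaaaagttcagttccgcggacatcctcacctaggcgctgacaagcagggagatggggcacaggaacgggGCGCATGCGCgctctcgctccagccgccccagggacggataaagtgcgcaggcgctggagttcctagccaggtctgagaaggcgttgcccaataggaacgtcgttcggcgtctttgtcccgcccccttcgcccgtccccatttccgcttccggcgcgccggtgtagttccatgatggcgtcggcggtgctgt
Cox8a: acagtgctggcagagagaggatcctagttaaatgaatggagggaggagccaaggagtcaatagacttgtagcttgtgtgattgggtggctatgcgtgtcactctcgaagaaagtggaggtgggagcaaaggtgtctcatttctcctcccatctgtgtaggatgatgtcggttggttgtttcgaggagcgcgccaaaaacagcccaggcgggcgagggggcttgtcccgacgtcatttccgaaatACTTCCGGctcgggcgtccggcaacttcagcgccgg
Cox8b: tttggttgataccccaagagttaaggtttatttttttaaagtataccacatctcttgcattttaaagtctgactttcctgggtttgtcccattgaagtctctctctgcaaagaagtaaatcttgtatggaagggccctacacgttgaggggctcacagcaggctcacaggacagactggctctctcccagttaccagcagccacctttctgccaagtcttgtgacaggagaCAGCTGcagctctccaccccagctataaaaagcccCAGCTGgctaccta
Both strands of each promoter were searched for 4 motifs. A member was counted once, with a match in any of its promoter entries, whereas the share over all promoters counts entries. The shares set side by side below therefore have different units. Cox6a1, the general isoform, held the nuclear respiratory factor 1 motif, the run in capitals in its window, at position -162 from the start, and 4 of 64 members (6.25%) held it, against 299 of 32851 promoters (0.91%). Cox8a, also a general isoform, held the ETS family motif CCGGAAGT on the reverse strand at position -6, and 4 members (6.25%) held it, against 1221 promoters (3.72%). Cox8b, the muscle isoform, held the E-box CAGCTG at positions -19 and 17, and 6 members (9.38%) held it, against 4896 promoters (14.9%). The MEF2 motif, CTA and TAG with any 4 bases between them, was in none of these 3 windows, in 2 members (3.12%) and in 1151 promoters (3.5%). The matched motifs did not overlap each other in these windows, and a match describes letters in the window, not binding.

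Spots with at least 200 UMIs were kept: 339 in control, 647 in UVR, 544 in retinol and 644 in HPR, with 326095, 2558616, 1414976 and 1249928 UMIs. They were clustered into 7 regions without the members, and the regions were joined into an outer layer, a middle layer and a muscle layer by marker genes. The outer layer held keratinocyte markers. It consisted of region 1, led by Ticrr and replication histone genes, region 5, led by Pla2g4d, Aqp5 and Cdsn, and region 3, led by Krt77, Krt10 and Lor. Region 3 supplied 109 of the 111 outer spots in control and 0, 1 and 3 in UVR, retinol and HPR, so that every outer comparison with control sets different regions against each other. The middle layer held fibroblast, gland and macrophage genes. The muscle layer held region 0, led by Pvalb and Myh4, and region 4, led by Ank2, Myh2 and Actn2; HPR muscle was nearly all region 4, with 191 spots against 3 of region 0. Control had the lowest outer depth, with a median of 1333 UMIs per spot against 4322 to 6210.5 in the others, and only 29 muscle spots. The areas shared 430 barcodes, which mark grid positions on the slide.

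Members gave 134997 UMIs in the 4 sections. Complex I subunits made up 44.5% of these, complex V 26.1%, complex IV 17.6%, complex III 9.29%, complex I assembly factors 1.75% and complex II 0.695%. Such shares depend on the probes, since each gene is read by probes of its own, and levels are compared below only for the same gene or sum between places. Of the 82 members, 53 had at least 100 UMIs over the 4 sections and 14 had fewer than 20. Ndufb6 (29828 UMIs) and Ndufv3 (14251), accessory subunits of complex I, and Atp5a1 (17272) and Atp5d (10983), the alpha and delta subunits of the ATP synthase catalytic part, together held 53.6% of member UMIs. Cycs and Cox8c had 0 UMIs. Cox7b2, Cox6b2, Cox7c and Cox4i2 had 1, 2, 6 and 6 UMIs, and Cox7a2, Cox6c and Cox7b 83, 109 and 114. Cox4i1, Cox5a, Cox6b1, the mitochondrial DNA-encoded subunits and the mitochondrial ribosome were not analysed here.

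Member transcripts were most abundant in muscle in every section. In CPM, UMI counts scaled to the total of the layer, the summed members stood at 18510 in the outer layer of control, 20261 in UVR, 18770 in retinol and 17783 in HPR. In the middle layer they stood at 21696, 22731, 23513 and 22565 in the same order. In the muscle layer they stood at 45060, 59062, 70777 and 68480. All 4 muscle values lay above all 8 values of the other layers, and the lowest of them belonged to control. Spot by spot, the median share of UMIs from members was 4.12% to 6.99% in muscle and 1.81% to 2.2% in the outer layer, and the highest share of any muscle spot was 11.7%, in HPR.

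**Figure D1:**
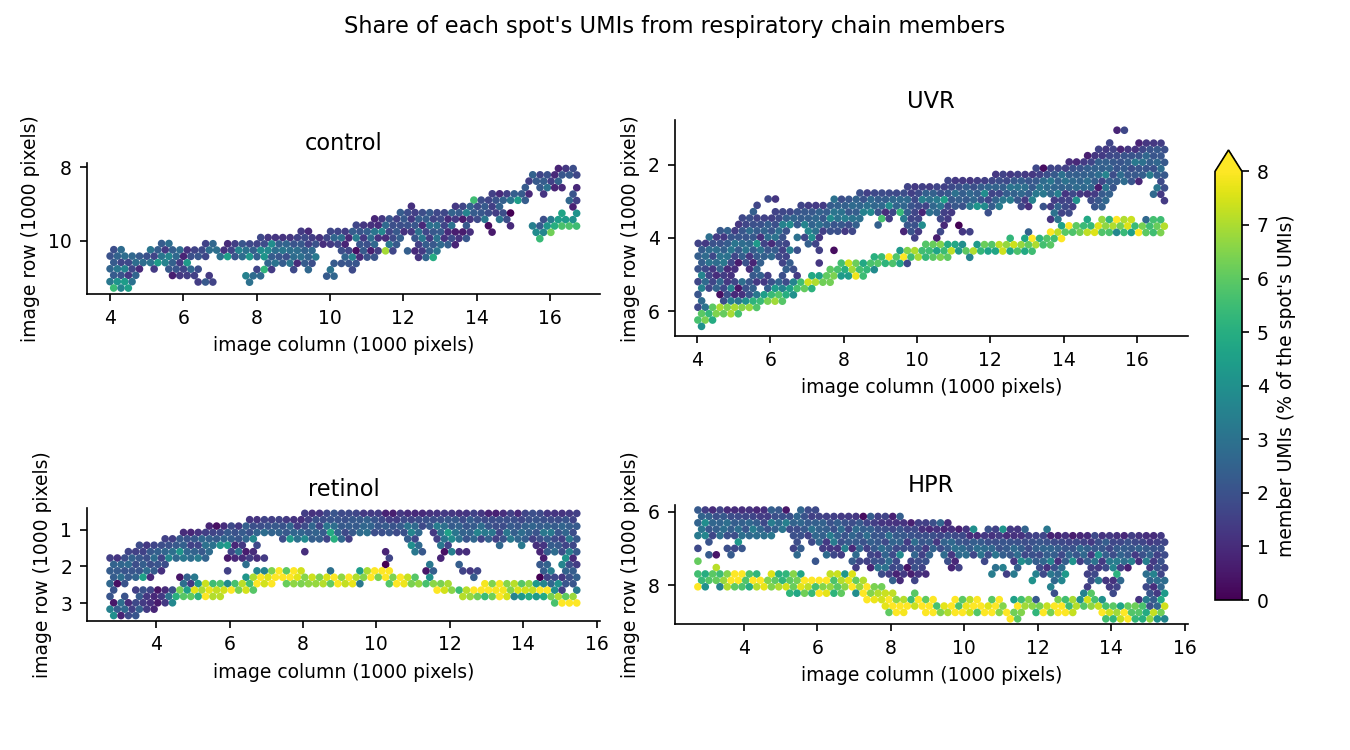
Each point is a spot with at least 200 UMIs, placed by its image column and row (in 1000 pixels) in the control, UVR, retinol and HPR sections and coloured by the percentage of its UMIs that came from members (values above 8% take the top colour). The bright band along the deep edge is muscle, with median shares of 4.12% to 6.99%, and the outer layer has medians of 1.81% to 2.2%.

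The summed complexes differed in how far muscle stood above the outer layer, with the sums of complexes II and IV furthest above. Summed complex IV transcripts in muscle were 5.34 times the outer level in control (interval 4.65 to 6.13), 6.55 times in UVR (6.31 to 6.8), 9.73 times in retinol (9.2 to 10.3) and 10.2 times in HPR (9.58 to 10.8). Cox6a2 alone gave 3966 of the 5683 complex IV UMIs in UVR muscle, against 125 of 5602 in the outer layer. In the muscle of control, retinol and HPR it gave 305 of 453, 1802 of 2539 and 1668 of 2443. The complex IV ratios therefore rest largely on this gene, and ratios without it were not computed. Complex V was at 3, 3.2, 5.1 and 5.22 times, and complex III at 2.6, 3.24, 4.14 and 3.76 times. Complex I subunits showed the smallest excess of complexes I, III, IV and V in each section, at 1.55, 1.65, 1.95 and 1.98 times. This sum is weighted toward Ndufb6 and Ndufv3, which did not reach 1.5-fold in muscle in every irradiated section. Complex II, with fewer UMIs, was 4.77 times as high in the muscle of control (2.32 to 9.84), 9.07 in UVR (7.54 to 10.9), 10.8 in retinol (7.57 to 15.5) and 12.4 in HPR (8.7 to 17.7), and its intervals in retinol and HPR overlapped those of complex IV. All members together were 2.43 times as high in control (2.3 to 2.57), 2.92 in UVR (2.87 to 2.97), 3.77 in retinol (3.67 to 3.87) and 3.85 in HPR (3.75 to 3.96). Scaled by the median ratio over genes in place of total UMIs, these ratios were 7.84, 7.51, 9.67 and 7.69, and the order of the sections changed. A CPM is a share of all transcripts of a layer, so fewer cells of a type and less RNA per cell cannot be told apart. The layers were cut from the same spots, so these ratios are descriptions.

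**Figure D2:**
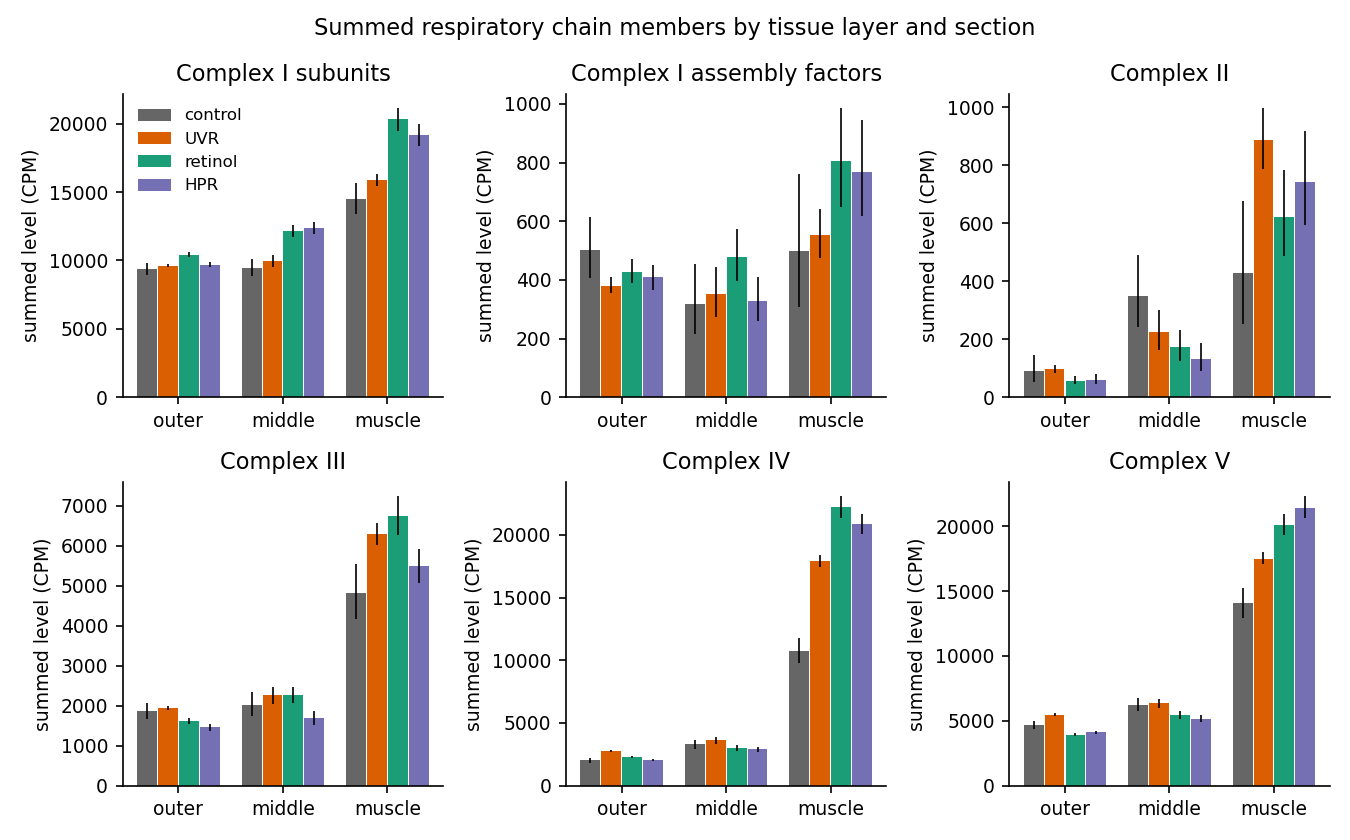
Bars show the summed CPM of the members of each complex in the outer, middle and muscle layers of each section, with Poisson intervals from UMI counts. Complex IV reaches 10754 to 22188 CPM in muscle against 2015 to 2739 in the outer layer, while complex I subunits reach 14505 to 20318 against 9363 to 10438.

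Most members that could be compared were higher in muscle, unlike most genes. With at least 100 UMIs over both layers, 40 members could be compared in UVR, of which 32 were at least 1.5-fold higher in muscle and 4 at least 1.5-fold lower, against 21.3% and 64.7% of all genes compared. In control 6 of 10 were higher (15.1% of all genes) and 1 lower (72.3%), in retinol 23 of 27 (17.7%) and 3 (66.9%), and in HPR 22 of 26 (22.1%) and 3 (60.1%). The median log2 ratio over these members was 2.43 in UVR against -1.48 over all genes, 1.83 against -1.44 in retinol, 2.04 against -1.03 in HPR and 0.87 against -1.71 in control. Some members passed the minimum only through their muscle counts, and these had to be higher there. The marker genes of fast muscle summed to 319334, 267515, 209875 and 125680 CPM in the muscle of control, UVR, retinol and HPR, and the part of those genes in the ratios was not tested. The 3 brown adipocyte markers had 0 UMIs in muscle, as had the slow myosin gene Myh7. The other slow muscle markers, Tnnt1, Tnni1 and Myl2, are not given here, so Myh7 alone does not describe slow fibres. Whether the genes with 0 UMIs were detected in other layers is not given either.

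The 26 members with enough UMIs in all 3 irradiated sections fell into 3 sets. Of these, 18 were at least 1.5-fold higher in muscle in each section, 3 were at least 1.5-fold lower, and 5 were neither. Across the 26 members the ratios ranked similarly between sections, with Spearman correlations of 0.97 (UVR and retinol), 0.941 (UVR and HPR) and 0.981 (retinol and HPR), given as a description because the sections share probes and layer definition. The widest gaps belonged to muscle isoforms of complex IV. Cox6a2 (chr7:128205435-128206366, GRCm38.p6) stood at 7241 CPM in control muscle, 12522 in UVR, 15748 in retinol and 14242 in HPR, and at 185, 61.1, 45.2 and 71.3 CPM in the outer layer. Its muscle level was 200 to 349 times the outer level in the irradiated sections and 39.2 times in control (27.6 to 57.4), where outer Cox6a2 was highest. Cox8b (chr7:140898942-140900446) stood at 783, 1588, 1556 and 1033 CPM in muscle, from 33 to 503 UMIs, and at 2.82 to 10.5 CPM in the outer layer, from 2 to 9 UMIs, which gave 361 times in UVR (189 to 794), 551 in retinol (185 to 2696) and 103 in HPR (52.5 to 231). Cox7a1 had 172 UMIs in UVR muscle against 4 in the outer layer, a ratio of 278 (107 to 1031).

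Among complex V members, Atp5e, the epsilon subunit, was 11.5 to 21.7 times as high in muscle in the irradiated sections and 11.7 times in control. Atp5k, a membrane subunit, was 13 to 20.5 times as high, the catalytic beta subunit Atp5b 6.05 to 9.49 times, Atp5a1 3.13 to 6.43 times and Atp5l 3.19 to 4.51 times. Atp5d lay at 1.01 to 2.35 times, so subunits of the same catalytic part were spread widely. In complex III, Uqcr10 was 10.1 to 13.6 times as high, Uqcr11 4.8 to 5.63, Cyc1 2.47 to 3.56 and the core protein Uqcrc1 1.88 to 2.87 times. In complex II, whose single members reached 100 UMIs only in UVR, Sdhc and Sdhd, the membrane anchors of the complex, were 9.93 and 7.02 times as high.

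Complex I divided. Ndufa13 (10.1 to 17 times), Ndufs7 (8.38 to 13), Ndufb7 (6.19 to 12), Ndufs3 (2.45 to 6.27), Ndufab1 (2.23 to 4.13) and Ndufc2 (2.02 to 2.85) were higher in the muscle of all 3 irradiated sections, Ndufs3 and Ndufs7 being core subunits of the arm that carries the iron-sulfur clusters. Ndufb6 (0.641 to 1.25 times) and Ndufv3 (1.17 to 1.61), the most counted members of complex I, did not reach 1.5-fold in all 3. Neither did Ndufa12 (0.836 to 1.61) and the assembly factor Ndufaf8 (1.41 to 1.79). The sum over complex I is weighted toward Ndufb6 and Ndufv3, and its ratio without them was not computed. Over all complexes together, leaving out the 4 most counted members (Ndufb6, Atp5a1, Ndufv3 and Atp5d) gave a summed ratio of 5.33 times in UVR and 4.05 in control. Ndufa4l2, counted with complex I by its symbol only, is a paralog of the complex IV-associated protein Ndufa4 and is known as a hypoxia-induced gene. It was the lowest of the 26 members in muscle relative to the outer layer. It stood at 248, 231, 229 and 194 CPM in the outer layer of control, UVR, retinol and HPR, with 0, 3, 1 and 1 UMIs in muscle, and was 24.4 times lower in UVR muscle (8.3 to 119), 26.2 times in retinol (4.65 to 1038) and 22.7 times in HPR (4.02 to 902). Cox6a1 was 2.2 to 6.9 times lower in muscle and Cox8a 1.56 to 5.08 times lower.

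**Figure D3:**
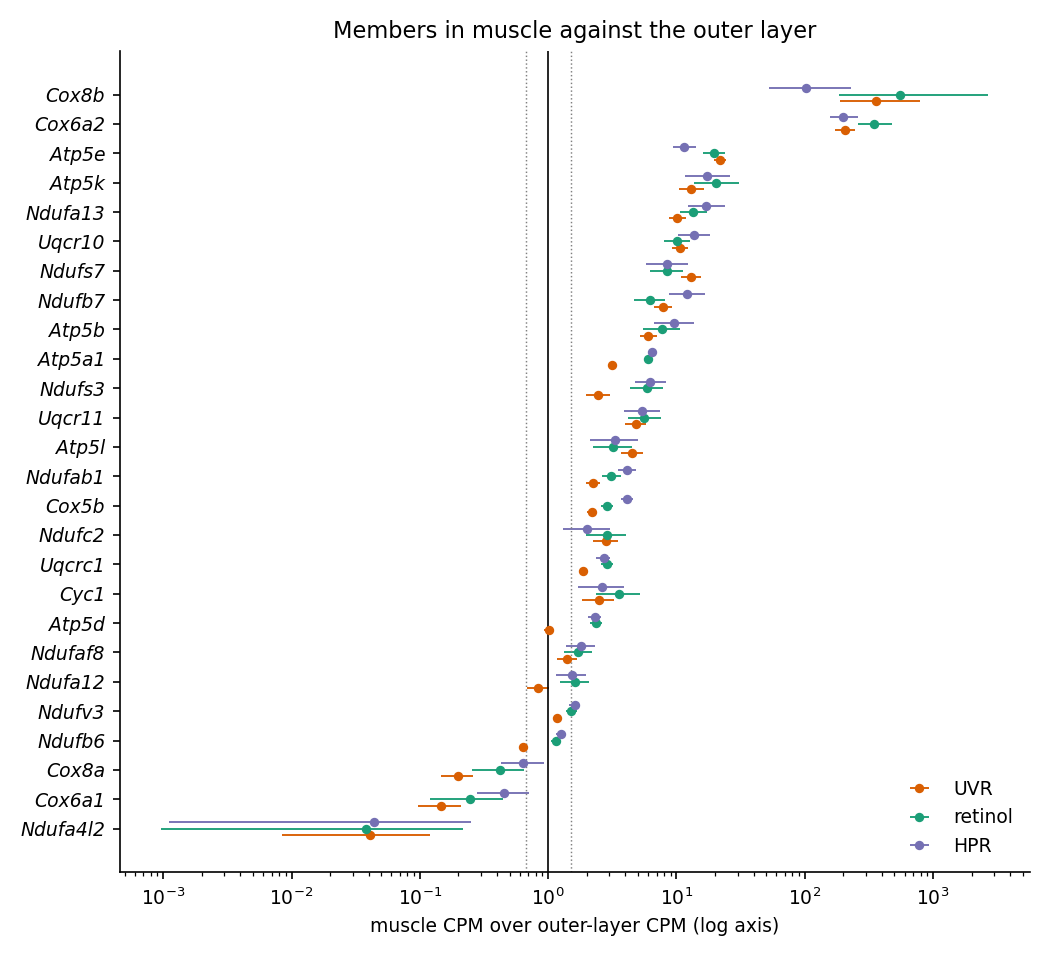
Points show the muscle CPM over the outer CPM (log axis) of the 26 members with at least 100 UMIs over both layers in UVR, retinol and HPR, with counting intervals; dotted lines mark 1.5-fold either way. Cox8b and Cox6a2 lie at the high end (103 to 551 and 200 to 349 times) and Ndufa4l2 at the low end (22.7 to 26.2 times lower).

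In every section the muscle isoform held a larger share of its pair in muscle than in the outer layer. The shares depend on the probes of both genes and are compared between places only. Cox6a2 made up 98.4% of Cox6a2 plus Cox6a1 UMIs in control muscle, 99.3% in UVR, 99.4% in retinol and 98.8% in HPR. In the outer layer it made up 9.14% in UVR (7.66 to 10.8), 10.3% in retinol (7.69 to 13.4), 15.3% in HPR (12 to 19.1) and 29.9% in control (21.8 to 39.1). The control interval lay above those of all 3 irradiated sections, and the middle layer lay between, at 50.5% in control and 18.7% to 33.6% in the others. The creatine kinase gene Ckm, a muscle marker, stood at 549 CPM in the outer layer of control and at 303, 105 and 120 in UVR, retinol and HPR, and the summed fast muscle markers at 1382, 812, 235 and 307; the part of muscle transcripts in outer Cox6a2 was not tested. Per 100 Ckm UMIs, outer spots held 33.7, 20.2, 42.9 and 59.3 Cox6a2 UMIs, against 5.84, 11.6, 17.1 and 23.7 in muscle. Each outer Cox6a2 value was above the muscle value of its section. For Cox8b the outer values were 1.92, 1.45, 2.68 and 8.33, against 0.632, 1.47, 1.69 and 1.72 in muscle, so UVR was not above. For Cox7a1 they were 2.88, 0.646, 2.68 and 6.48, against 0.211, 0.502, 0.304 and 0.426. The outer values of Cox8b and Cox7a1 rested on 2 to 9 UMIs.

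The second pair behaved alike with a lower outer share. Cox8b made up 82.5% (67.2 to 92.7) of Cox8b plus Cox8a UMIs in control muscle, 90.8% (88.1 to 93.1) in UVR, 89.4% (84.3 to 93.3) in retinol and 80.1% (72.9 to 86.2) in HPR. The UVR and HPR intervals did not overlap in the whole layer, but within region 4, which holds nearly all HPR muscle, the shares were 80.6% in UVR (62.5 to 92.5) and 79.6% in HPR (72.2 to 85.8). In the outer layer Cox8b made up 1.94%, 0.535%, 0.64% and 2.45%. Cox7a1 made up 91.7%, 95%, 88.9% and 85.7% of its pair in muscle. Its outer shares of 33.3%, 16%, 25% and 41.2% rested on 9 to 25 UMIs, and their intervals overlapped each other and, in control, that of muscle.

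**Figure D4:**
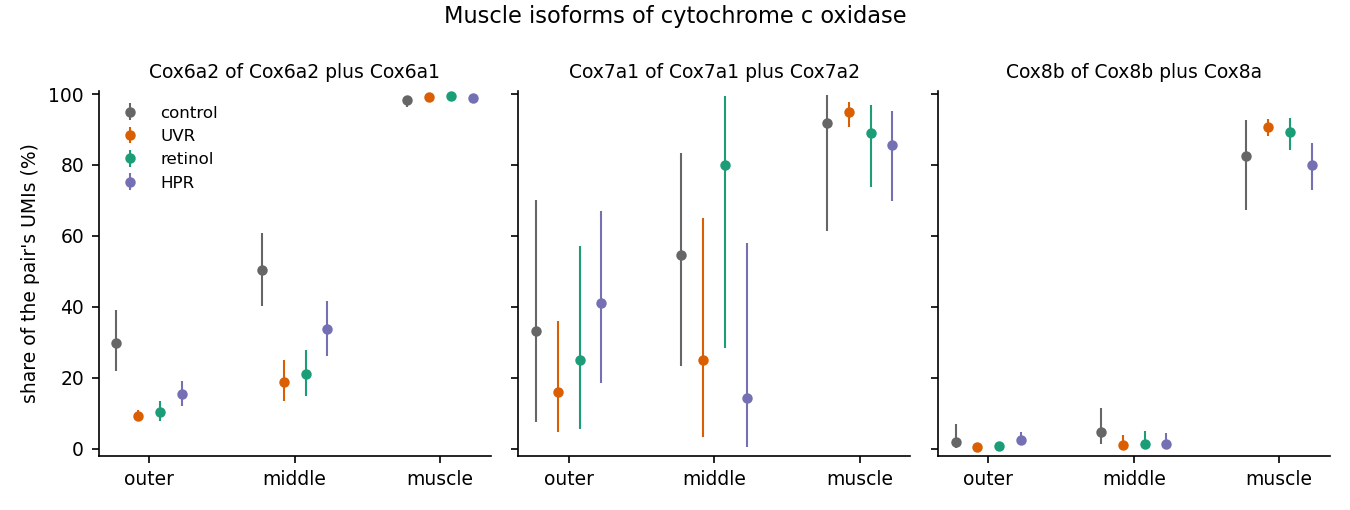
Points give the muscle isoform's percentage of the UMIs of its pair in the outer, middle and muscle layers of each section, with exact binomial intervals. Cox6a2 lies at 98.4% to 99.4% in muscle and 9.14% to 29.9% in the outer layer, Cox8b at 80.1% to 90.8% and 0.535% to 2.45%, and the Cox7a1 intervals outside muscle are wide.

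Within the irradiated outer layer, members were higher in the region with replication genes than in the region with cornified genes. Summed member CPM in region 1 was 1.43 times that in region 5 in UVR (1.4 to 1.45), 1.39 times in retinol (1.35 to 1.43) and 1.4 times in HPR (1.35 to 1.44). In UVR, 15 of 28 members were at least 1.5-fold higher in region 1, against 45.4% of all genes. In retinol 10 of 21 were higher (30.7% of all genes) and in HPR 6 of 15 (28.3%). The median log2 ratios were 0.67, 0.56 and 0.54 against 0.50, 0.33 and 0.33 over all genes, so the members' shift was close to that of genes in general. Uqcrc1 was 2.17, 1.55 and 1.56 times as high in region 1, Atp5a1 1.71, 1.43 and 1.61 times, and Cox5b, a zinc-binding subunit of complex IV, 1.63, 1.64 and 1.54 times. Ndufv3 was close to even, at 1.01, 1.2 and 1.26 times. Only Ndufa4l2 was lower past 1.5-fold among the members compared in any of the 3 sections, at 0.483 times (0.397 to 0.585), 0.383 (0.291 to 0.501) and 0.297 (0.202 to 0.427), against 13.3%, 9.42% and 11.7% of all genes lower.

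Between UVR and control, the outer layer differed little in total and more in single members. The summed ratio was 1.09 (1.06 to 1.13), and 0.942 where sections were scaled by the median ratio over genes in place of total UMIs. Complex IV was 1.36 times as high in UVR (1.23 to 1.51) and complex V 1.17 times (1.09 to 1.25), while complex I subunits (1.03, 0.98 to 1.08) and complex III (1.05, 0.938 to 1.17) had intervals that included 1. Of 31 members compared, 6 were at least 1.5-fold higher in UVR, against 32.2% of all genes, and 1 lower, against 15.1%, with a median log2 ratio of 0.14 against 0.22. The higher members were Ndufa8, Uqcr10, Cox5b, Ndufa12, Atp5l and Cox8a. Cox5b stood at 707 CPM in control and 1168 in UVR, a ratio of 1.65 (1.39 to 1.98). Ndufa12 stood at 280 and 461 CPM, also 1.65 (1.25 to 2.22), and Cox8a at 533 and 818 CPM, 1.54 (1.26 to 1.9). Ndufa8, a complex I accessory subunit, rested on 6 control UMIs (2.8, 1.26 to 7.72), and the Atp5l interval included 1 (1.6, 0.936 to 2.97). Cox6a2 was 3.02 times lower in UVR, with the Ckm values given above, and Atp5k (0.748) and Cox7a2l (0.75) were the next lowest. Suprabasal and cornified keratinocyte markers stood at 91061 CPM in control and 21853 in UVR, and basal markers at 25509 and 60844, and the part of this difference in the ratios was not tested.

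In retinol-treated skin the outer layer showed lower ATP synthase and complex IV transcripts and slightly higher complex I transcripts than in UVR. The complex V sum was 0.72 times the UVR level (0.694 to 0.746), complex IV 0.833 (0.794 to 0.874), complex III 0.837 (0.791 to 0.886) and complex II 0.587 (0.433 to 0.786), while complex I subunits were at 1.08 (1.06 to 1.11) and all members at 0.926 (0.911 to 0.942). With the median-ratio scaling, the sum over all members moved nearer to the UVR level, as listed in the closing section. Of 32 members compared, 0 were at least 1.5-fold higher (14.9% of all genes) and 8 at least 1.5-fold lower (22% of all genes), with a median log2 ratio of -0.28 against -0.05. The lowest was Sdhc (chr1:171129157-171150640, GRCm38.p6), a membrane anchor of succinate dehydrogenase, with 95 UMIs or 46.4 CPM in UVR and 11 UMIs or 10.4 CPM in retinol, 4.49 times lower. Control held 42.2 CPM from 8 UMIs and HPR 20 CPM from 18 UMIs, so both treated sections, which share an area, were below both sections of the other area. The control interval (18.2 to 83.1), however, overlapped those of retinol (5.17 to 18.5) and HPR (11.9 to 31.7). The other complex II genes had too few UMIs, at 10.3 and 10.4 CPM for Sdha, 12.7 and 11.3 for Sdhb and 28.4 and 25.4 for Sdhd in UVR and retinol. Sdhc gave 95 of the 200 outer complex II UMIs in UVR, 11 of 61 in retinol and 18 of 54 in HPR. The lower complex II sum in retinol therefore rests largely on Sdhc, and complex II ratios without it were not computed. The same split of Sdhc by area appeared in the middle layer, with 191 CPM in control, 102 in UVR, 8.39 in retinol and 25.5 in HPR, from 18, 20, 2 and 6 UMIs. In muscle, Sdhc stood at 309, 461, 210 and 367 CPM, and the control interval overlapped those of UVR, retinol and HPR.

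Among the other members lower in retinol were 4 of the ATP synthase. Atp5b stood at 161 CPM in UVR and 81 in retinol, a ratio of 0.503 (0.392 to 0.64), and Atp5d at 2333 and 1541 CPM, 0.66 (0.624 to 0.699). Atp5e and Atp5k were at 0.661 and 0.605 times. Cox8a belonged to the same set, at 818 CPM in UVR and 439 in retinol, 0.536 times (0.483 to 0.594), with Cox6a1, at 608 and 393 CPM, 0.648 times (0.578 to 0.724), and Ndufa8, at 0.457 times (0.32 to 0.641) but 0.986 over the left side of the sections alone. For Cox8a, retinol lay below control (533 CPM) as well. At the other end, Ndufv3 was 1.25 times as high (1.2 to 1.31), Ndufaf8 1.19 times and Cox5b 1.14 times. Within region 1 alone, 7 of 25 members were at least 1.5-fold lower (21.9% of all genes) and Cox8a was at 0.532 times, and within region 5 alone 3 of 21 were (18.8%) and Cox8a was at 0.501 times. The calls of Atp5d, Cox6a1, Atp5e and Atp5k held in 4, 5, 5 and 6 of 10 settings of the processing. With labels by the spot grid, retinol over UVR became 1.02 for complex IV (0.91 to 1.14) and 0.876 for complex V (0.814 to 0.944). Basal keratinocyte markers stood at 60844 CPM in UVR and 36338 in retinol, and their part was not tested.

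In HPR-treated skin more members were lower in the outer layer than in retinol over UVR, as was a larger share of all genes. Again no member was higher past 1.5-fold. Of 32 members compared, 0 were higher (8.58% of all genes) and 11 lower (26.6%), with a median log2 ratio of -0.41 against -0.17, and all members were at 0.878 times the UVR level (0.862 to 0.894). With the median-ratio scaling, this sum came close to the UVR level, as listed in the closing section. Complex III (0.75, 0.704 to 0.799), complex IV (0.748, 0.709 to 0.789), complex V (0.75, 0.722 to 0.779) and complex II (0.615, 0.447 to 0.835) were lower, and the complex I interval included 1 (1.01, 0.983 to 1.03). Atp5b was the lowest, at 161 CPM in UVR and 65.7 in HPR, a ratio of 0.409 (0.304 to 0.54). Sdhc was at 0.432 times (0.245 to 0.719) and Ndufa8 at 0.441 times (0.298 to 0.635). Ndufa13 stood at 136 and 62.4 CPM, 0.457 times (0.337 to 0.611), and Cox8a at 818 and 399 CPM, 0.487 times (0.433 to 0.546). Ndufb7 (0.502), Ndufaf5 (0.511), Uqcr10 (0.554), Atp5d (0.603), Cox6a1 (0.649) and Cox7a2l (0.666) completed the lower members, the last with an interval that included 1 (0.413 to 1.04) and a call that held in 3 of 10 settings. Cyc1 (1.24, 0.966 to 1.6), Ndufaf8 (1.18, 1.03 to 1.34) and Cox6a2 (1.17) had the highest ratios. Within region 1 alone 10 of 25 members were lower past 1.5-fold (26.1% of all genes), and within region 5 alone 4 of 21 (21.1%). With labels by the spot grid, HPR over UVR became 1.13 for complex IV (1.02 to 1.26) and 0.841 for complex V (0.782 to 0.905). Retinol and HPR were compared with the same UVR section, so their ratios are not independent of each other, and basal markers stood at 32586 CPM in HPR.

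HPR and retinol, on the same area at different concentrations, differed less. Of 24 members compared, 1 was at least 1.5-fold higher in HPR (4.42% of all genes) and 4 lower (11.4%), with a median log2 ratio of -0.11 against -0.12 and a summed ratio of 0.947 (0.928 to 0.967), or 1.03 with the median-ratio scaling. The lower members were Ndufb7, at 127 CPM in retinol and 72.4 in HPR (0.57, 0.417 to 0.771), Ndufa13, at 104 and 62.4 CPM (0.597, 0.425 to 0.83), Ndufs7, at 97 and 62.4 CPM (0.643, 0.456 to 0.899), and Uqcr10, at 136 and 88 CPM (0.645, 0.484 to 0.854). In UVR these 4 genes stood at 144, 136, 91.4 and 159 CPM, nearer to retinol than to HPR in each case. Cox6a2 was higher in HPR, at 45.2 and 71.3 CPM (1.58, 1.07 to 2.34), beside Ckm at 105 and 120 CPM, although over the left side of the sections alone the ratio was 0.918. Cyc1 (1.2, 0.896 to 1.59) and Atp5e (1.17, 0.931 to 1.47) had intervals that included 1, as had the complex V sum (1.04, 0.997 to 1.09). Cox8a, Cox6a1 and Atp5d were at 439, 393 and 1541 CPM in retinol and 399, 394 and 1408 in HPR.

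**Figure D5:**
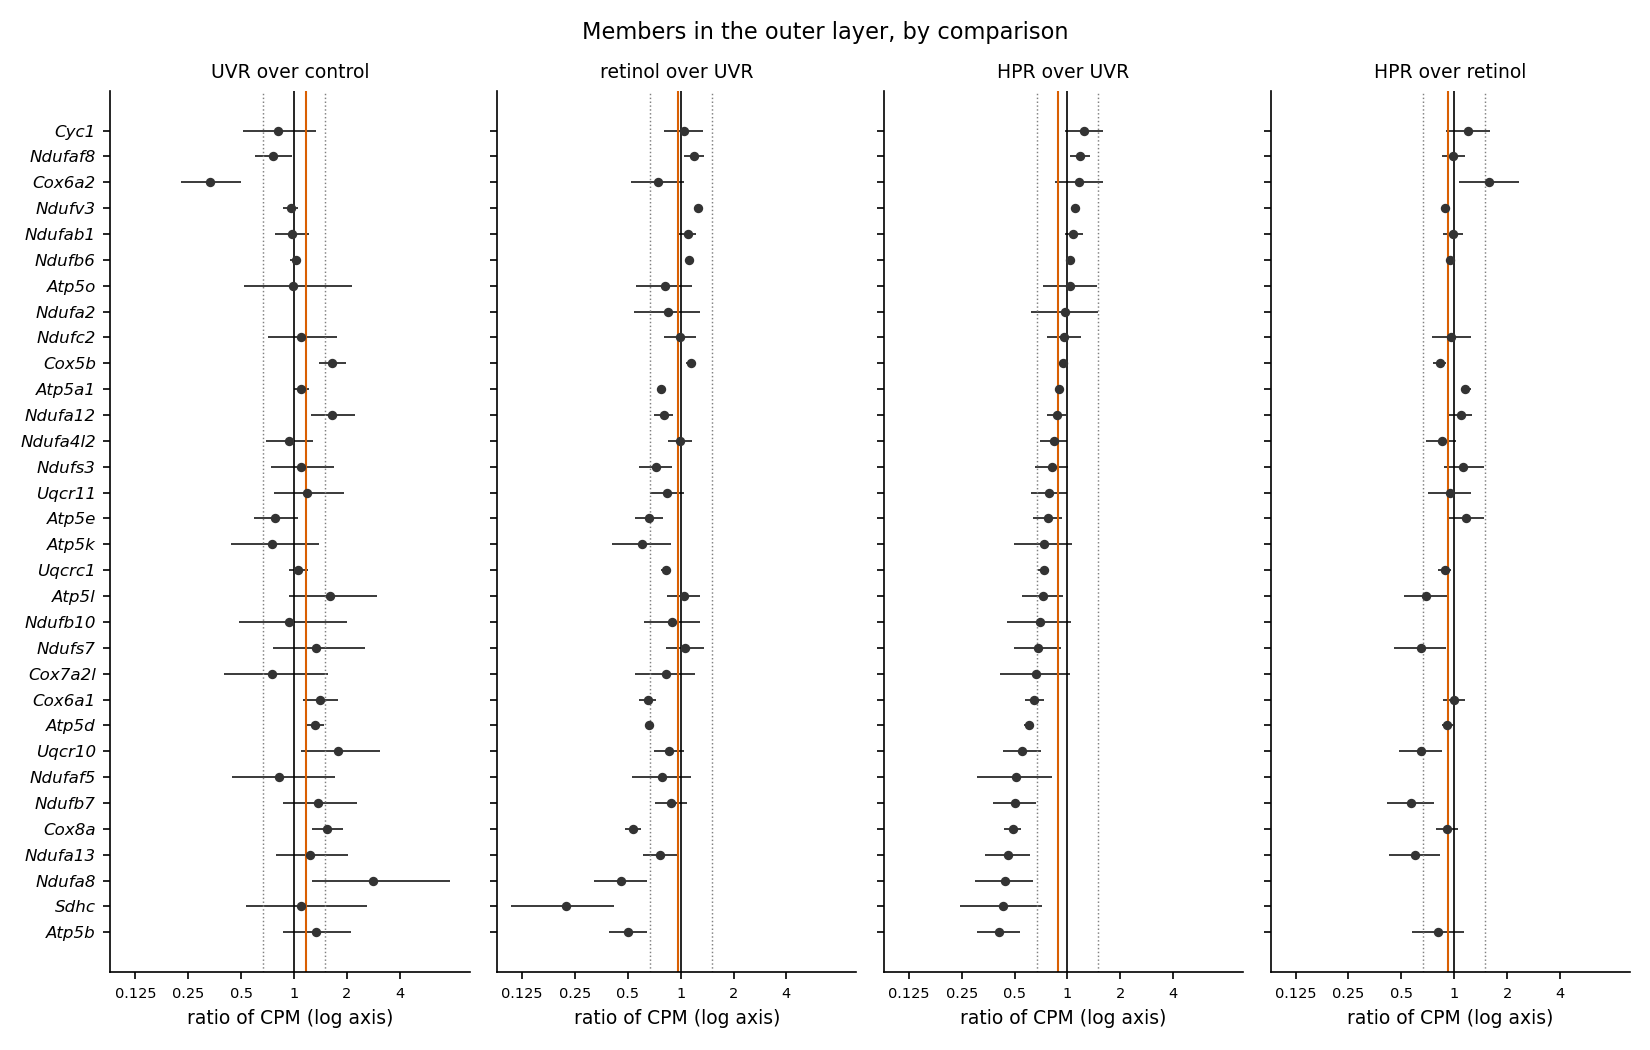
Points show the outer-layer CPM ratio (log axis) of each member whose UMIs in the sections compared reached 100, with counting intervals; the black line is 1, dotted lines mark 1.5-fold either way and the orange line is the median of all genes compared. In retinol over UVR and HPR over UVR no point passes the upper dotted line, and 8 and 11 points pass the lower one.

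In the middle layer, where the median depth was 366 to 514 UMIs per spot, few members could be compared. UVR over control had 0 of 10 members past 1.5-fold in either direction (20.1% of all genes higher, 11.8% lower). Retinol over UVR had 1 of 12 higher (12.6% of all genes), Ndufab1 at 1.55 times, and 2 lower (12.1%), Atp5e at 0.618 and Cox8a at 0.645 times. HPR over UVR had 0 of 12 higher (12.3%) and 3 lower (13.7%), Cox6a1 at 0.559, Uqcrc1 at 0.663 and Atp5d at 0.665 times. HPR over retinol had 0 of 13 higher (6.61%) and 1 lower (10.6%), Ndufaf8 at 0.656 times.

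In the muscle layer the summed members of both treated sections lay above UVR, but complexes and members differed in direction. Summed members stood 1.31 times as high in UVR as in control (1.25 to 1.37), 1.2 times as high in retinol as in UVR (1.17 to 1.23) and 1.16 times in HPR as in UVR (1.13 to 1.19), with HPR over retinol at 0.968 (0.938 to 0.998). With labels by the spot grid, these 4 ratios became 0.763, 1.52, 1.57 and 1.03. Retinol and HPR stood at 1.28 and 1.21 times UVR for complex I subunits, 1.24 and 1.16 for complex IV and 1.15 and 1.22 for complex V, but at 0.699 and 0.837 for complex II and 1.07 and 0.871 for complex III. Ndufb6 and Ndufv3 gave 1040 and 838 of the 5028 complex I subunit UMIs in UVR muscle. They gave 744 and 491 of 2325 in retinol, and 781 and 474 of 2247 in HPR. Atp5a1 gave 2427 of 5546 complex V UMIs in UVR, 1300 of 2301 in retinol and 1654 of 2511 in HPR. These sums are weighted toward the genes named, and their ratios without them were not computed. In UVR over control, 11 of 32 members were at least 1.5-fold higher (27.8% of all genes) and 0 lower (11.4%). These 11 included Cox6a2 at 1.73 times (1.54 to 1.95), Cox8b at 2.03 times (1.42 to 2.98) and Cox7a1 at 2.08 times. In retinol over UVR, 8 of 34 were higher (25%) and 8 lower (15.3%). Ndufb6 stood at 3284 CPM in UVR muscle and 6502 in retinol, 1.98 times (1.8 to 2.18), with Ndufs3, Ndufv3, Ndufa12, Atp5d, Ndufab1, Cox5b and Cyc1 between 1.72 and 1.5 times. Atp5e went the opposite way, from 4916 to 2945 CPM (0.599, 0.531 to 0.674), with Sdhc (0.455), Cox7a1 (0.515), Ndufb10 (0.527) and Atp5b (0.638). In HPR over UVR, 7 of 33 were higher (37.2%) and 13 lower (21.2%), with a median log2 ratio of -0.39 against 0.27 over all genes although the sum was higher. Atp5a1 stood at 7663 CPM in UVR and 14123 in HPR, 1.84 times (1.73 to 1.96), Ndufb6 at 2.03 and Cox5b at 1.77 times, against Atp5e at 0.41 (0.356 to 0.47), Ndufs7 at 0.447, Uqcrh at 0.513 and Cox8b at 0.651 times. UVR muscle was mostly region 0 (130 of 167 spots) and HPR muscle nearly all region 4, and within region 4 alone Atp5e was at 0.704 times (0.524 to 0.961), Ndufs7 at 0.815 (0.443 to 1.62) and Cox8b at 0.813 (0.525 to 1.31). There 7 of 13 members were higher past 1.5-fold (36.5% of all genes) and 0 lower (9.52%), and the summed ratio was 1.44 (1.35 to 1.55). In HPR over retinol, 0 of 22 were higher (12.7%) and 4 lower (8.86%), Uqcrh, Ndufa2, Ndufs7 and Cox8b, between 0.544 and 0.664 times.

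The makeup of the muscle layer differed between the sections alongside these values. The fast muscle myosin Myh4 stood at 118086 CPM in control, 70675 in UVR, 46220 in retinol and 11928 in HPR, and Myh1 made up 3.66%, 15.2%, 13.8% and 42.6% of Myh1 plus Myh4 UMIs. Ckm stood at 123973, 108074, 91995 and 60103 CPM, and fibroblast markers at 499, 452, 1005 and 1921 CPM. Since CPM values of a layer add up to a fixed total, lower contractile transcripts leave a larger share for others, and their part in the member ratios was not tested. Region 0, the higher of the 2 muscle regions in fast muscle markers, held 1.5 times the summed member CPM of region 4 in control, 1.26 times in UVR and 1.08 times in retinol. Of the members compared, 2 of 5 were at least 1.5-fold higher in region 0 in control (61.5% of all genes) and 1 lower (15.4%), 10 of 31 (29.1%) and 1 (18.8%) in UVR, and 0 of 12 in either direction (5.96% and 6.62%) in retinol.

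Companion genes of mitochondrial and sugar metabolism were read the same way. In muscle over outer layer of UVR, 7 of 7 citric acid cycle genes, 5 of 7 fatty acid oxidation genes, 3 of 3 pyruvate entry genes, 6 of 8 other assembly factors and 7 of 8 glycolysis genes were at least 1.5-fold higher in muscle, as were 2 of 5 carriers and 1 of 2 biogenesis regulators, against 21.3% of all genes. Slc25a4, the ADP/ATP carrier of muscle, was 29.2, 44.9, 93.8 and 85.8 times as high in the muscle of control, UVR, retinol and HPR. In the outer layer of retinol over UVR, 1 of 5 citric acid cycle genes, 2 of 3 fatty acid oxidation genes, 2 of 4 carriers, 0 of 8 other assembly factors and 1 of 5 glycolysis genes were lower past 1.5-fold, against 22% of all genes, with none higher in these lists. In HPR over UVR the lower counts were 3 of 4, 2 of 3, 2 of 4, 4 of 8 and 3 of 5, against 26.6% of all genes, with 1 assembly factor higher. Slc25a4 was at 0.579 times in retinol over UVR (0.505 to 0.663) and 0.444 times in HPR over UVR (0.377 to 0.522). Citrate synthase (Cs) was at 0.772 and 0.656 times, and Gpi1, the second enzyme of glycolysis, at 0.681 and 0.514 times. The higher assembly factor was Ttc19, of complex III, at 1.72 times in HPR over UVR (1.48 to 1.99), while Esrra, a nuclear receptor that drives mitochondrial genes, was at 0.986 and 1.11 times. In UVR over control, 3 of 5 glycolysis genes were higher (32.2% of all genes) and 0 lower (15.1%), Pgam1 at 2.7 times and Gpi1 at 1.9 times, and Acaa2, the last enzyme of the fatty acid oxidation spiral, was at 0.207 times (0.171 to 0.252).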

How the data were processed

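The authors deposited, for each of the 2 capture areas, a UMI count per gene and spot, spot positions and image scale factors. Per the labels' protocols, probes were hybridised to frozen sections and libraries followed a kit for fixed tissue. Space Ranger 2.0.0, Seurat 4.1.0 and the build mm10 are named in the submitters' processing notes. The deposited counts were used as they are. Members and gene lists were chosen with earlier results of these data known.

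Spots with at least 200 UMIs were scaled to 10000 counts, log-transformed and clustered with scanpy 1.11.5 (2000 variable genes without members and companion lists, 20 principal components, 15 neighbours, Leiden resolution 0.5), with no doublet caller. A region was given the layer with the highest median log2 fold of its markers, and was outer if this was below 2. Ratios are CPM over CPM with exact (Clopper-Pearson) 95% intervals, for genes whose UMIs on the sides compared summed to 100 or more, and called from 1.5-fold. Level intervals are Poisson and share intervals exact binomial. All intervals cover counting error only. The scripts were tested on simulated data. Named by rule were complex II, Cyc1, Cycs, the complex IV isoforms, the 3 most counted members of each other complex and the 3 highest and lowest outer ratios per comparison. Other members named, such as those past 1.5-fold, were chosen after their values were seen.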

Additional observations from a re-analysis of the deposited data

Results flagged for a closer look

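With sections labelled by image row, the treated sections lay above UVR in muscle and below it in the outer and middle layers for complexes IV and V. The difference between layers was not tested. For complex IV, retinol over UVR was 1.24 in muscle, 0.833 in the outer and 0.834 in the middle layer, and HPR over UVR was 1.16, 0.748 and 0.798. For complex V, the corresponding ratios were 1.15, 0.72 and 0.859 for retinol and 1.22, 0.75 and 0.814 for HPR. With labels by the spot grid, outer complex IV was not below UVR, at 1.02 (0.91 to 1.14) for retinol and 1.13 (1.02 to 1.26) for HPR. Outer complex V stayed below, at 0.876 and 0.841. In the irradiated sections most complex IV UMIs of muscle, but few of the outer layer, came from Cox6a2. In complex V, Atp5a1 gave 2427 of 5546 muscle UMIs in UVR, 1300 of 2301 in retinol and 1654 of 2511 in HPR. Other complex V members differed in direction there. In UVR, retinol and HPR muscle, Atp5e stood at 4916, 2945 and 2015 CPM and Atp5d at 2355, 3627 and 3262. Treated over UVR ratios of complexes IV and V without Cox6a2 and Atp5a1 were not computed. Over all genes, the median log2 ratio in muscle was 0.10 for retinol over UVR and 0.27 for HPR over UVR. For all members, retinol over UVR was 1.2 in muscle, 0.926 in the outer and 1.03 in the middle layer, and HPR over UVR was 1.16, 0.878 and 0.993, with middle intervals that included 1. Both outer sums of all members moved nearer to the UVR level with the median-ratio scaling. Complexes I, II and III did not follow the pattern in both treated sections: in muscle and outer layer, retinol over UVR was 1.28 and 1.08 for complex I subunits, 0.699 and 0.587 for complex II and 1.07 and 0.837 for complex III, and HPR over UVR was 1.21 and 1.01, 0.837 and 0.615, and 0.871 and 0.75.

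Spots with fewer than 200 UMIs, which entered no comparison, also held member transcripts. Their summed member CPM was 23433 in control, 28344 in UVR, 24374 in retinol and 26868 in HPR, in each case between the outer and the muscle level of that section.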

How the results depend on the processing

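Outer sums are given in the order UVR over control, retinol over UVR, HPR over UVR, HPR over retinol, and muscle over outer sums in the order control, UVR, retinol, HPR. Assigning the groups by the spot grid gave 0.914, 0.961, 1.01 and 1.06, and 2.92 and 2.43 in control and UVR. It also turned the ratios of Cox5b (0.605), Cox6a2 (3.02), Cox8a (0.651), Uqcr10 (0.564) and Ndufa8 (0.358) in UVR over control, Ndufa8 (1.23) in retinol over UVR, Uqcr10 (1.52), Ndufa8 (1.28) and Ndufb7 (1.2) in HPR over UVR, and Cox6a2 (0.634), Uqcr10 (1.55), Ndufa13 (1.68), Ndufb7 (1.76) and Ndufs7 (1.55) in HPR over retinol, because the groups change places. Scaling by the median ratio over genes gave 0.942, 0.962, 0.991 and 1.03, and 7.84, 7.51, 9.67 and 7.69. Layers drawn by marker shares gave 1.04, 0.958 and 0.916 for the first 3 outer sums, and 2.29, 2.86, 3.57 and 3.63; with no spot minimum as well, 1.03, 0.959 and 0.918, and 2.24, 2.83, 3.48 and 3.55. Resolution 1.0 gave 0.95 for retinol and 0.913 for HPR over UVR, and 3.66 and 3.68 for muscle over outer in retinol and HPR. At that resolution the outer layer also took in regions of 149 and 224 spots with median fibroblast log2 folds of 1.398 and 1.839. The larger was led by Mmp11, Col1a2 and Col1a1, so this outer layer was not keratinocyte regions alone. The left side of the sections alone gave 0.898 for retinol over UVR and 0.993 for HPR over retinol, 2.22, 2.73 and 3.65 for muscle over outer in control, UVR and HPR, and 0.918 for Cox6a2 in HPR over retinol. The right side gave 0.943, 0.86 and 0.912 for the last 3 outer sums, and 2.59, 3.07 and 4.01 for muscle over outer in control, UVR and HPR. Equal weight of outer regions gave 0.91 and 0.976 for retinol over UVR and HPR over retinol and 3.88 for muscle over outer in retinol, and it could not be run for UVR over control, which share too few spots of a region. Region 1 alone gave 0.9 and 0.978 for retinol over UVR and HPR over retinol, and region 5 alone 0.899 and 0.973 for HPR over UVR and HPR over retinol. The median over members gave 0.825, 0.753 and 0.927 for the last 3 outer sums, and 1.83, 5.39, 3.56 and 4.11. Leaving out the 4 most counted members gave 1.13, 0.844, 0.78 and 0.924, and 4.05, 5.33, 6.58 and 6.4. In muscle, region 4 alone gave 1.43 for retinol over UVR and 1.44 for HPR over UVR. The single regions, the sum without 4 members and the settings for single members were chosen after seeing the data. Keeping spots from 500 UMIs left all 8 sums within their intervals. Counts of members past the fold moved with the minimum and the fold: in the outer layer from 8 of 32 lower in retinol over UVR to 16 of 60 with 20 UMIs, 4 of 13 with 500 UMIs and 2 of 32 at 2-fold, and from 11 of 32 in HPR over UVR to 19 of 58, 3 of 13 and 5 of 32. With 20 UMIs, 1 of 60 and 2 of 58 were higher in these comparisons. In UVR over control the 6 higher became 10 of 56, 3 of 13 and 1 of 31, and the 1 lower became 10 and 0 with 20 and 500 UMIs. In HPR over retinol the 1 higher became 8 of 49, and 500 UMIs or 2-fold left 0 in either direction. In muscle, 20 UMIs gave 22 of 52 higher in UVR over control, 11 and 21 of 53 higher and lower in HPR over UVR, and 3 and 10 of 46 in HPR over retinol; 500 UMIs gave 2 of 10 higher in UVR over control, 4 and 1 of 11 in retinol over UVR, 2 of 12 lower in HPR over UVR and 0 of 8 in HPR over retinol. At 2-fold, muscle kept 5 higher in UVR over control, 0 higher and 1 lower in retinol over UVR, 3 and 5 in HPR over UVR, and 0 lower in HPR over retinol. Without the grid reading, Cox8a and Sdhc stayed past 1.5-fold in retinol over UVR in 10 of 10 settings (0.501 to 0.565 and 0.0758 to 0.285), and Cox8a and Atp5b in HPR over UVR in 10 of 10 (0.437 to 0.588 and 0.368 to 0.548), whereas Atp5d, Cox6a1, Atp5e and Atp5k in retinol over UVR did in 4, 5, 5 and 6 of 10, Cox7a2l in HPR over UVR in 3 of 10 and Cox8a in UVR over control in 3 of 8. Ndufa8 in retinol over UVR ranged from 0.291 to 0.986 in these settings. With labels by the grid, Cox8a would not pass 1.5-fold in either comparison. Its outer levels would be 399 against 533 CPM in retinol over UVR and 439 against 533 in HPR over UVR. Atp5b in HPR over UVR would be 81 against 121 CPM, and Sdhc in retinol over UVR 20 against 42.2 CPM, from 18 and 8 UMIs. Depth limits Ndufa8, Sdhc and Cox7a1, which rest on few UMIs in some sections. No paired analysis was possible because each group is 1 section.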
